A study of Caenorhabditis elegans with 78 samples.

Results

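Histone H3 dimethylated at lysine 9 (H3K9me2) was followed at 575 regions on the arms of chromosome III of Caenorhabditis elegans. The peaks of 16 H3K9me2 lists were merged wherever they overlapped, which gave 16691 regions. A region counted as called in a list when a peak of that list overlapped it by at least 1 bp. Of all merged regions, 3307 (19.8%) were called in all 16 lists, and 575 of these had their midpoint below 4.14 Mb or above 9.65 Mb on III. There were 293 on the left arm and 282 on the right arm. The other autosome arms held 2244 regions chosen in the same way, and the centre of III held 46. All positions are in genome build ce10. The regions were thus selected on their H3K9me2 calls, and being called in every list is not a finding about them.

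The material was whole first-stage (L1) larvae that had hatched without food. Each mark had 16 libraries, 4 per genotype, with 2 at 26 °C and 2 at 20 °C. The mutants were lin-15B (allele n744), lin-35 (allele n745) and lin-37 (allele n758), and the wild type was N2. For the 26 °C groups the parents were shifted from 20 °C at the fourth larval stage. Peaks of histone H3 trimethylated at lysine 4 (H3K4me3) came from 16 further libraries with the same layout. Chromatin came from all cells of the larvae together, so a mark present in fewer cells cannot be told apart from less of the mark in each cell.

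In worms H3K9me2 is deposited mainly by the methyltransferase MET-2 and marks repressed chromatin. It is densest on the chromosome arms, which are rich in repeats and transposons, recombine more than the centres and are tethered to the nuclear periphery by the chromodomain protein CEC-4. H3K4me3 marks the promoters of active genes. LIN-35 is related to the retinoblastoma tumour suppressor and acts with the repressive DREAM complex, of which LIN-37 is a core subunit. LIN-15B contains a THAP-type DNA-binding domain. All 3 genes belong to the synMuv B class, whose loss lets larval somatic cells express germline genes.

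The H3K9me2 lists held 7420 to 13766 peaks and the H3K4me3 lists 5421 to 8412. The H3K9me2 library of lin-15B at 20 °C, replicate 1, stood apart. Its peak names carry a q cutoff of 0.05, against 0.01 in the other 15, and it covered 395.8 kb of the right-arm regions, the least of the 16 libraries. Within the 575 regions, library pairs matched for genotype and temperature overlapped with a Jaccard index (shared length divided by joint length) of 0.789 on average (range 0.717 to 0.837 over 8 pairs). Pairs matched for temperature but not genotype averaged 0.751 (0.666 to 0.852 over 48 pairs), and these ranges overlap. Lists hold no read counts, so where no peak is listed the mark may still be present below the caller's limit.

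The rule's edges were as follows. Just inside the left limit lay III:4118592-4120925, and the next stable region outside it was III:4209283-4211034. On the right the last region outside was III:9503682-9504665 and the first inside was III:9746422-9747173. A further 92 regions on the arms, with a median width of 1344 bp, were called in 15 of 16 lists, 32 on the left and 60 on the right. Of these 92, 46 were missing only from the list of lin-15B at 20 °C, replicate 1.

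The left arm carried far more stable H3K9me2 than the right arm from a similar number of regions. Regions stood at 70.8 per Mb on the left and 68.2 per Mb on the right. The left-arm regions added up to 1618 kb, or 39.1% of that arm, and the right-arm regions to 919 kb, or 22.2%. The stretches that were covered in every one of the 16 lists, called the core here, came to 795.6 kb on the left (19.2% of the arm) and 231.5 kb on the right (5.60%). The core thus made up 49.2% of the merged width on the left and 25.2% on the right. Only 10 left-arm and 18 right-arm regions had no base covered in all 16 lists. H3K9me2 lists chose these regions, so the arms are described here without a test.

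The covered length kept this order in each library. Left-arm regions were covered over 1181 ± 79.4 kb and right-arm regions over 559.5 ± 75.3 kb (SD, n = 16 libraries), and the left exceeded the right in 16 of 16 libraries. The ratio of left to right averaged 2.14 ± 0.322 and ran from 1.86 to 3.24, the highest being lin-15B at 20 °C, replicate 1. Stable regions of the other autosomes had different ratios, 1.37 ± 0.0780 on I, 1.35 ± 0.123 on II, 3.99 ± 0.209 on IV and 0.389 ± 0.0548 on V. The mean ratio of III therefore lay above those of I and II and below that of IV, while on V the right arm was the longer. The authors' peak scores were also higher on the left: the mean rank of a region's best peak within its list had a median percentile of 85.2 on the left and 71.8 on the right.

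The left arm held a tail of wide regions. Median merged widths were close, 2859 bp on the left (quartiles 1654 and 6428) and 2644 bp on the right (quartiles 1564 and 4086). The median covered length was higher on the left in 16 of 16 libraries, and the median core was 816 bp on the left and 451 bp on the right. Regions wider than 10 kb numbered 44 on the left and 7 on the right. All 13 regions wider than 20 kb were on the left arm, within 1.44 Mb between 982901 and 2425528, and they added up to 410.9 kb. With these 13 left out, the covered length of the left arm was still 1.54 ± 0.221 times that of the right (range 1.36 to 2.29, n = 16 libraries).

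**Figure D1:**
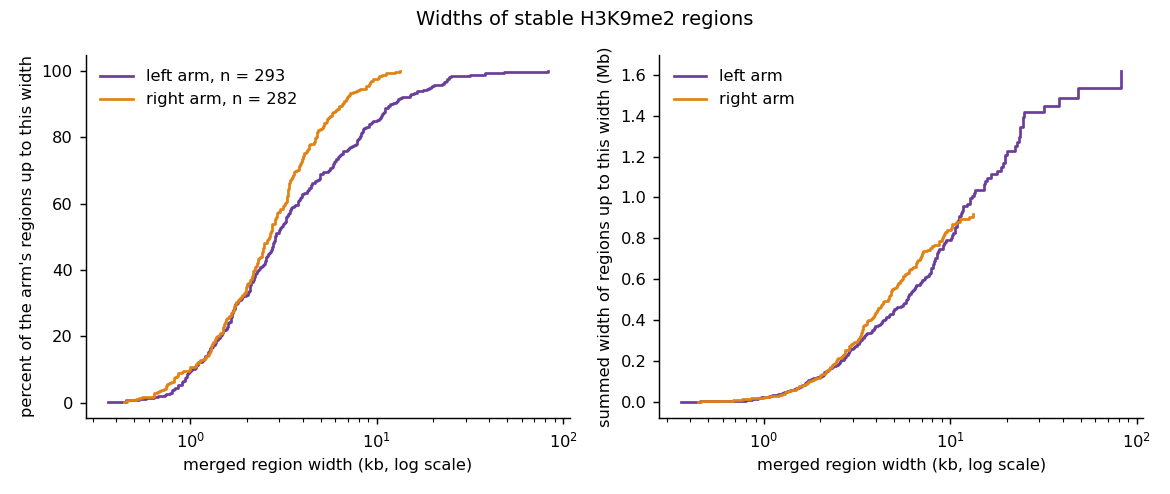
Widths of the stable regions on a log axis in kb, as the percent of each arm's regions up to a width (left panel) and as their summed width in Mb (right panel). The 293 left-arm and 282 right-arm curves run together up to about the medians of 2859 and 2644 bp, and only the left curve goes on past 13276 bp, to 82492 bp.

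The widest region, III:1485261-1567752, spanned 82492 bp, of which 61053 bp (74.0%) was core. It was covered over 72212 ± 4967 bp in lin-15B, 74168 ± 3302 bp in lin-35, 71821 ± 1323 bp in lin-37 and 74170 ± 6578 bp in wild type (SD, n = 4 each). The genotypes overlapped. An H3K4me3 peak overlapped this merged region in all 16 H3K4me3 libraries. The highest-scoring one in each library had a fold enrichment at its summit of 21.1 to 60.2. It need not be the same peak in every library. The H3K9me2 lists called the region as 2 to 18 separate peaks. Whether the H3K4me3 peaks lay under these or between them is not shown here.

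The next widest by covered length were III:1860203-1908356 (48154 bp, core 61.8%), III:2177097-2215398 (38302 bp, core 64.8%) and III:1162156-1193848 (31693 bp, core 74.5%). The last of these had no H3K4me3 peak in any library, and the region at 2177097 had one in 5 of 16, with folds of 2.07 to 4.50. Of the 13 regions wider than 20 kb, 7 had H3K4me3 in all 16 libraries and 2 in none, so wide merged regions occurred both with and without an overlapping H3K4me3 peak.

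On the right arm the region with the longest cover was III:12546891-12560166 (13276 bp), of which only 4645 bp was core. The next was III:11607678-11617231 (9554 bp), with 79.7% core. Its covered length ran from 7659 to 8890 bp over the 16 libraries, so every library covered most of it. The smallest regions were III:1120365-1120723 (359 bp) on the left and III:11165522-11165961 (440 bp) on the right.

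Stable H3K9me2 was not spread evenly along either arm. With each arm divided into 10 equal bins from the chromosome end inward, left-arm bin 5 was covered over 53.5% of its length and bin 8 over 44%, while bin 2 was covered over 6.63% and bin 10, next to the centre, over 1.92%. On the right arm bin 3 was the most covered, at 27.1%, and bins 8 to 10 were covered over at most 5.49%. The outermost bin was covered over 29.1% on the left and 5.41% on the right. The mean covered length was 221.4 ± 20.3 kb in left-arm bin 5, while thinly covered bins varied more for their size, such as right-arm bin 8 at 22.7 ± 4.67 kb (SD, n = 16, range 11.4 to 31.8 kb). The rule kept regions called in every list, so a peak in every bin in every library is built in.

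**Figure D2:**
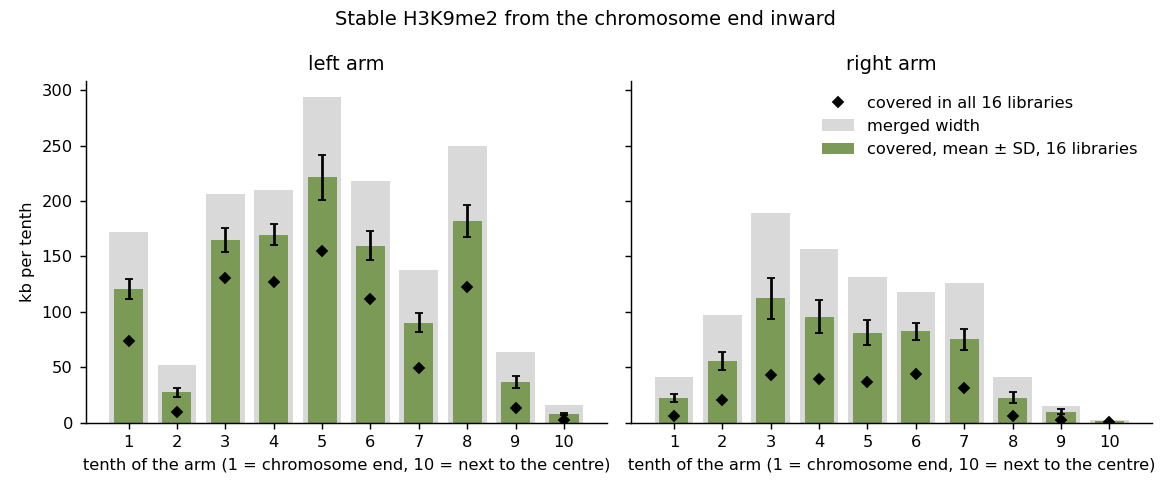
Stable H3K9me2 in kb for 10 equal bins of each arm of III, counted from the chromosome end. Grey bars are the merged width, green bars the mean covered length ± SD of 16 libraries and diamonds the length covered in all 16. The left arm peaks in bin 5 (221.4 kb) with gaps at bins 2, 9 and 10, and the right arm peaks in bin 3 (112.2 kb) and falls off from bin 8.

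In total covered length of the stable regions, every mutant library lay between the lowest and the highest wild-type library. The regions were covered over 1729 ± 56.7 kb in lin-15B, 1752 ± 37.5 kb in lin-35, 1685 ± 126.2 kb in lin-37 and 1797 ± 237.0 kb in wild type (SD, n = 4 each). Wild type itself ran from 1490 kb (26 °C, replicate 2) to 2062 kb (20 °C, replicate 2), the lowest and the highest of all 16 libraries. The differences from wild type were -67.5 kb in lin-15B (exact permutation test, two-sided, p = 0.6), -45.2 kb in lin-35 (p = 0.629) and -111.6 kb in lin-37 (p = 0.429). After Benjamini-Hochberg adjustment over the 13 exact tests made here, all 3 had p = 0.681. The smallest p that 4 libraries against 4 allow is 0.0286, so 1 such comparison alone could not pass after this adjustment, and a miss does not show that the lengths were alike. The lengths come from the lists that the rule used, which fixed that each region had a peak in every library but not how long it was. Within 26 °C alone, the differences turned positive (86.9 kb in lin-15B, 104.5 kb in lin-35 and 16.9 kb in lin-37), and without wild type at 20 °C, replicate 2, those of lin-15B and lin-35 did too (20.8 and 43.2 kb). Without wild type at 26 °C, replicate 2, the differences were -169.7 kb in lin-15B, -147.4 kb in lin-35 and -213.8 kb in lin-37.

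The arms were also compared within each library, as the left arm's share of the covered length. This share was not free of how much was called. In wild type it was lowest, 65.1%, in the library with the most cover and highest, 69.2%, in that with the least. The left arm held 70.7 ± 3.86% of the covered length in lin-15B, 67.5 ± 1.28% in lin-35, 66.6 ± 1.34% in lin-37 and 67.0 ± 1.91% in wild type (SD, n = 4 each). At 26 °C the share was 68.7% and 69.6% in the lin-15B libraries, against 65.7% and 69.2% in wild type. At 20 °C it was 76.4% and 68.1% in lin-15B, against 67.8% and 65.1% in wild type, so 2 of the 4 lin-15B libraries lay above every wild-type library. The difference of 3.72 percentage points did not pass the exact permutation test (p = 0.114, adjusted p = 0.371), and without lin-15B at 20 °C, replicate 1, it was 1.82 points. lin-35 differed from wild type by 0.53 points (p = 0.629) and lin-37 by -0.37 points (p = 0.800) in the same exact test.

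Larvae at 26 °C had 1685 ± 91.6 kb covered and larvae at 20 °C 1796 ± 145.5 kb (SD, n = 8 each). The difference of -110.7 kb did not pass the exact test with temperature permuted within genotype (p = 0.125, adjusted p = 0.371). Taken as a percent of each library's autosomal covered length, the regions held 20.1% at 26 °C and 18.9% at 20 °C, so the sign depended on the scale.

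**Figure D3:**
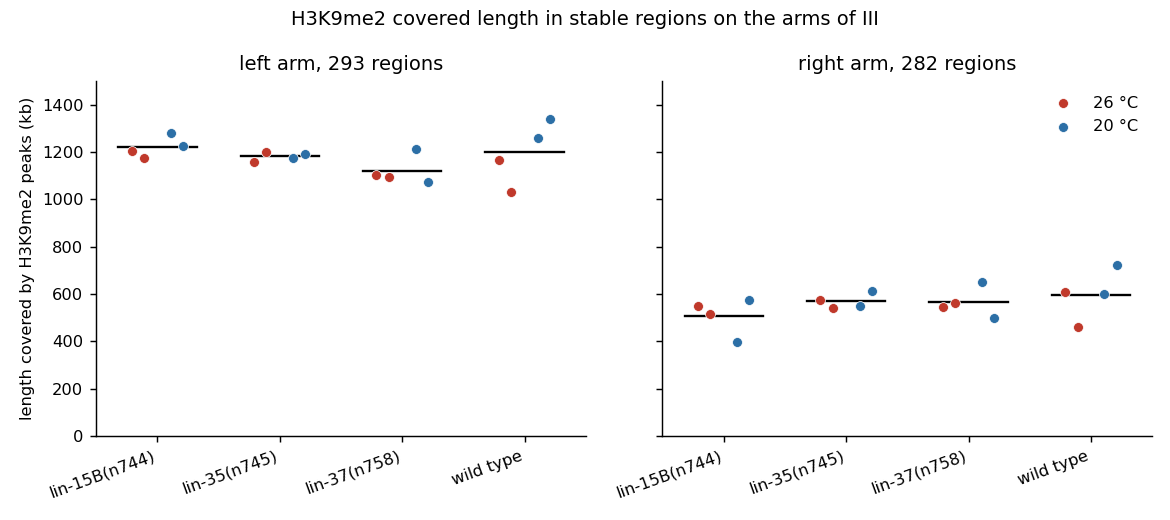
Length in kb covered by H3K9me2 peaks in the stable regions of the left arm (left panel) and right arm (right panel), 1 point per library (26 °C red, 20 °C blue), with the mean of each genotype as a line (n = 4). Every library is higher on the left (1032 to 1342 kb) than on the right (395.8 to 720.2 kb), and the genotypes overlap.

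At single regions, mutant and wild-type lengths could be set apart in a small share of cases. In lin-15B, 44 of the 575 regions (7.65%) were shorter, meaning that all 4 mutant libraries lay below all 4 wild-type libraries, against 6.14% of all stable regions in the genome. In the same mutant 20 (3.48%) were longer, against 5.32%. In lin-35 there were 18 shorter (3.13%, against 3.36%) and 7 longer (1.22%, against 2.21%), and in lin-37 28 shorter (4.87%, against 3.05%) and 7 longer (1.22%, against 1.84%). The share of longer regions was thus below the background in all 3 mutants, and that of shorter ones above it in lin-15B and lin-37 and slightly below it in lin-35. Across the mutants 75 regions (13.0%, against 9.53% of all stable regions) were shorter in at least 1 and 26 (4.52%, against 7.74%) longer in at least 1. None of these shares was tested against its background. Of the 70 splits of 4 libraries against 4, 1 gives such a separation in each direction. Some separations are thus expected by chance among 575 regions. All comparisons share the wild-type libraries. The rule kept no region that was without a peak in any list, so a full loss could not appear here. With each length taken as a percent of the library's autosomal cover, 79 regions (13.7%, against 10.6%) were shorter and 9 (1.57%, against 4.11%) longer in lin-15B.

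Leaving out a library can only keep or raise these counts, since fewer libraries then have to lie apart. The same shares over all stable regions are not given with a library left out. Counts of shorter regions rose most without wild type at 26 °C, replicate 2, to 124 for lin-15B, 66 for lin-35 and 102 for lin-37. Without lin-35 at 20 °C, replicate 2, 36 were shorter in lin-35, and without lin-37 at 20 °C, replicate 1, 48 were shorter in lin-37. Without wild type at 20 °C, replicate 2, 35 regions were longer for lin-15B, 32 for lin-35 and 24 for lin-37. Longer regions in lin-15B numbered 42 without its replicate 1 at 20 °C. In lin-35 they numbered 15 without its replicate 1 at 20 °C, 15 without its replicate 2 at 26 °C and 11 without wild type at 26 °C, replicate 1. In lin-37 they numbered 20 without its replicate 2 at 20 °C and 14 without its replicate 1 at 26 °C.

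The split of the shorter regions over the arms varied by mutant, and no test of it was made. In lin-15B 13 were on the left and 31 on the right, and without wild type at 26 °C, replicate 2, the split was 39 and 85. Stable regions of the other autosomes had 7.07% shorter on left arms and 4.64% on right arms in this mutant. In lin-37 20 were on the left and 8 on the right, 58 and 44 without that same library, and 31 and 17 without lin-37 at 20 °C, replicate 1, with 3.28% on left arms and 2.56% on right arms elsewhere. In lin-35 the split was 8 and 10, but 22 and 44 without that wild-type library and 14 and 22 without lin-35 at 20 °C, replicate 2, with 4.12% on left arms and 3.31% on right arms elsewhere. Leaving out any other single library gave counts on each arm between these values and those with all libraries. Longer regions of lin-15B lay mostly on the left, 15 against 5, but 24 against 18 without lin-15B at 20 °C, replicate 1, the library with low right-arm cover, and 29 against 6 without wild type at 20 °C, replicate 2.

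A few regions lay apart from wild type in the same direction in all 3 mutants. Their shares were near or below those of all stable regions and were not tested. Longer in every mutant were 3 regions (0.522%, against a background of 0.423%), singled out after their values were seen. At III:455107-458917 H3K9me2 covered 3765 and 3013 bp in lin-15B at 26 °C and 2581 and 2223 bp in lin-15B at 20 °C. It covered 3727 and 1803 bp in lin-35 at 26 °C and 2958 and 2780 bp at 20 °C, and 2717 and 3730 bp in lin-37 at 26 °C and 3746 and 1802 bp at 20 °C, against 640 and 994 bp in wild type at 26 °C and 546 and 629 bp at 20 °C. Every wild-type library was thus below every mutant library, and the lowest mutant value, 1802 bp, stood against a highest of 994 bp in wild type. No H3K4me3 peak lay there in any library.

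The second such region, III:12495396-12498974, was covered over 2596 ± 565 bp in lin-15B, 3445 ± 73.5 bp in lin-35, 3288 ± 87.0 bp in lin-37 and 697.8 ± 102.4 bp in wild type (SD, n = 4 each). It differed from the first in carrying H3K4me3 in 15 of 16 libraries. The third, III:3433019-3435573, was covered over 1892 ± 303 bp in lin-15B, 1369 ± 89.1 bp in lin-35, 1444 ± 31.5 bp in lin-37 and 795.5 ± 151.0 bp in wild type.

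Shorter in every mutant were 2 regions (0.348%, against a background of 0.695%), also singled out after their values were seen. Both had H3K4me3 in all 16 libraries. At III:2575683-2578371 the covered lengths ran from 472 to 1293 bp in lin-15B, 547 to 1575 bp in lin-35 and 1011 to 1481 bp in lin-37, against 2660 and 1971 bp at 26 °C and 2640 and 2572 bp at 20 °C in wild type. At III:12902906-12905060 they averaged 367.0 ± 103.6 bp in lin-15B, 464.0 ± 133.5 bp in lin-35 and 570.2 ± 33.7 bp in lin-37, against 1554 ± 404 bp in wild type. In both, as the choice required, every mutant library was covered over less than every wild-type library. H3K4me3 fold at the second region averaged 45.9 in lin-15B, 42.1 in lin-35, 44.2 in lin-37 and 41.7 in wild type, so this mark was strong in all 4 genotypes.

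**Figure D4:**
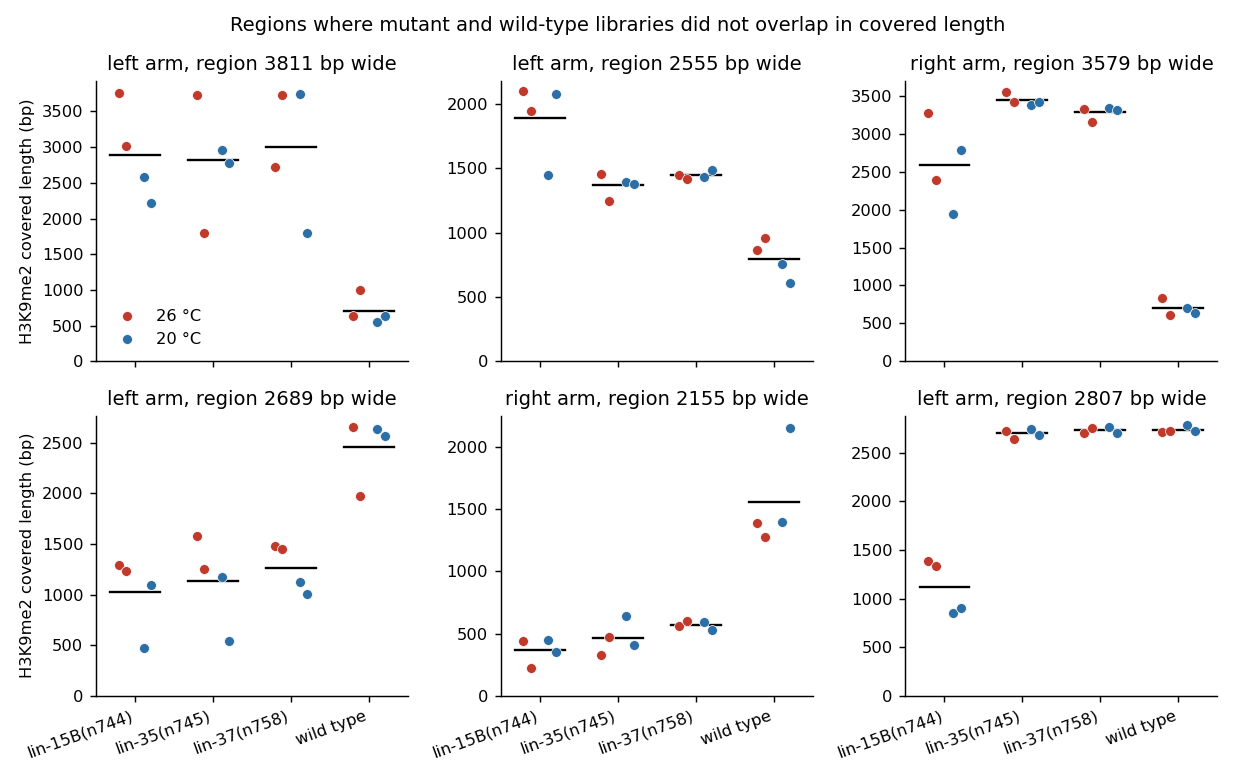
Covered length in bp at 6 regions, 1 point per library (26 °C red, 20 °C blue), with genotype means as lines (n = 4). The top row shows the 3 regions longer in all 3 mutants, and the bottom row the 2 shorter in all 3 and III:195259-198065. In the first 5 panels no mutant point overlaps wild type, and in the last only lin-15B lies apart from it (856 to 1382 bp, against 2716 to 2785 bp).

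Other regions lay apart from wild type without overlap in 1 or 2 of the mutants. III:11062860-11067194 was covered over 912.8 ± 93.7 bp in lin-35 and 1353 ± 668 bp in lin-37, against 2954 ± 558 bp in lin-15B and 3053 ± 525 bp in wild type (SD, n = 4 each). lin-35 and lin-37 were shorter than wild type without overlap, while lin-15B overlapped it. Among the named regions with the largest shortening in lin-15B, III:12818579-12823382 was covered over 1356 ± 748 bp, against 3935 ± 827 bp in wild type, and III:12504759-12513495 over 1719 ± 200 bp, against 3799 ± 1515 bp.

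In lin-35, III:2168698-2173603 was covered over 843.2 ± 388 bp, against 2555 ± 968 bp in wild type. In lin-37 the 31693-bp region at 1162156 was covered over 25911 ± 256 bp, against 28632 ± 1201 bp, a change of a small part of a long block. III:3283142-3294872 was covered over 6738 ± 672 bp in lin-37, against 9274 ± 1566 bp in wild type. Among the longer ones, III:1418781-1442222 was covered over 19268 ± 1285 bp in lin-15B, against 15222 ± 2145 bp in wild type.

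Temperature moved the length of 1 region without overlap between the 8 libraries of each temperature (0.174%, against a background of 0.454% shorter at 26 °C), and of none in the other direction (background 0.0302%). At III:173673-180570, near the left end, the covered lengths at 26 °C were 1722 and 2485 bp in lin-15B, 508 and 252 bp in lin-35, 493 and 765 bp in lin-37 and 755 and 1255 bp in wild type. At 20 °C they were 3638 and 5892 bp in lin-15B, 5746 and 6829 bp in lin-35, 6848 and 5365 bp in lin-37 and 3271 and 5460 bp in wild type. This region, chosen after its values were seen, was shorter at 26 °C in all 4 genotypes.

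H3K4me3 was not used to choose the regions. Of the 575 regions, 310 (53.9%) had no H3K4me3 peak in any of the 16 libraries, 93 (16.2%) had one in all 16, and 172 in some. Both arms held similar numbers of always-marked regions, 46 on the left and 47 on the right. Wide regions were marked more often. Median width was 5223 bp for regions with H3K4me3 in all libraries, 3294.5 bp for those with it in some and 2158 bp for those with it in none, and a wider region has more room for a peak.

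Within the regions, H3K4me3 took up less of the core than of the rest. Its peaks covered 3.53 ± 1.34% of the left-arm core and 7.28 ± 1.65% of the rest of the left-arm regions (SD, n = 16 libraries). On the right arm they covered 4.81 ± 1.70% of the core and 7.47 ± 1.79% of the rest. The core had the lower share in 16 of 16 libraries on both arms.

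Per library, 130 to 214 of the 575 regions held an H3K4me3 peak. The left arm had 27.8 ± 4.64% of its regions marked and the right arm 28.2 ± 4.53% (SD, n = 16). The difference of -0.48 points did not pass the exact sign-flip permutation test over libraries (p = 0.166, adjusted p = 0.371), with 10 of 16 libraries lower on the left. It turned to 1.65 points when the peak's summit had to lie inside the region, and it was -3.37 points (adjusted p = 1.98e-04, same exact test) when only peaks of at least 5-fold were counted, so the order of the arms in this share changed with the definition. As a percent of region length, H3K4me3 peaks covered 5.43 ± 1.47% on the left and 6.80 ± 1.73% on the right, lower on the left in 16 of 16 libraries.

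The stable regions of III carried H3K4me3 more often than the pooled regions of the other autosome arms, but not more often than those of I. The share was 28.0 ± 4.54% on III and 23.3 ± 3.60% on the others (SD, n = 16), a difference of 4.66 points in the same direction in 16 of 16 libraries (exact sign-flip permutation test, two-sided, p = 3.05e-05, the smallest it can give, adjusted p = 3.97e-04). By chromosome the share on the arms of I was 28.2 ± 4.10%, with III above it in 8 of 16 libraries and a mean difference of -0.24 points. It was 25.1% on II, 23.4% on IV and 16.6% on V, each below III in 16 of 16 libraries, so the pooled difference came from these 3 chromosomes, with the widest gap, 11.4 points, to V. Classes of width showed the same direction. III was above the pooled others by 2.38 points under 2 kb, in 15 of 16 libraries, by 2.08 points between 2 and 5 kb, in 14, and by 8.48 points above 5 kb, in 16. The last class has no upper limit and is not of like width: its widest region was 82492 bp on III and 32426 bp on the others. The difference was 4.91 points in the 8 libraries that share a code in their deposited names and 4.42 points in the other 8. The test concerns libraries, not whether regions were drawn at random.

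The mutants had more marked regions than wild type on average, but the libraries overlapped. The counts were 179.8 ± 32.1 in lin-15B, 159.8 ± 21.5 in lin-35, 158.8 ± 27.1 in lin-37 and 145.5 ± 19.5 in wild type (SD, n = 4 each). The differences of 34.2, 14.2 and 13.2 regions did not pass the exact permutation test (p = 0.171, 0.4 and 0.486, adjusted p = 0.371, 0.681 and 0.681). The excess in lin-15B was 22.8 without its replicate 2 at 26 °C. In lin-35 it was 7.17 without its replicate 1 at 20 °C, 9.42 without wild type at 20 °C, replicate 1, 24.2 without its replicate 2 at 20 °C and 23.8 without wild type at 26 °C, replicate 1. In lin-37 it was 3.17 without its replicate 1 at 26 °C, 8.17 without its replicate 2 at 26 °C, 8.42 without wild type at 20 °C, replicate 1, 21.8 without its replicate 2 at 20 °C and 22.8 without wild type at 26 °C, replicate 1. At 26 °C 173.4 ± 21.1 regions were marked and at 20 °C 148.5 ± 25.7 (SD, n = 8 each), a difference of 24.9 (exact permutation within genotype, p = 0.0540, adjusted p = 0.351). The temperature difference passed the same exact test when lists were cut to an equal number of peaks (17.4 regions, adjusted p = 0.0173) and when only peaks of at least 5-fold were counted (24.6 regions, adjusted p = 0.0134).

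At 2 regions the temperatures separated fully, with H3K4me3 in 8 of 8 libraries at 26 °C and 0 of 8 at 20 °C (0.348% of the 575, against 0.0479% of all merged regions), and the reverse occurred at none. They were named after their values were seen. The share over stable regions alone is not given, and all merged regions carried H3K4me3 less often than the 575 in each library. At III:3653338-3654254 the folds at 26 °C were 5.89 and 5.26 in lin-15B, 5.12 and 18.4 in lin-35, 18.2 and 7.80 in lin-37 and 4.24 and 5.90 in wild type. At III:10873642-10876845 they were 10.2 and 5.75 in lin-15B, 5.87 and 8.05 in lin-35, 13.8 and 6.13 in lin-37 and 7.21 and 9.56 in wild type. H3K9me2 covered 593 to 802 bp at the first and 700 to 2539 bp at the second over the 16 libraries, and at both the 2 temperatures overlapped in this length. At the first, every lin-15B library was covered over less than every wild-type library.

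Some regions gained H3K4me3 in mutants, defined as a peak in 4 of 4 mutant and 0 of 4 wild-type libraries. lin-15B gained it at 15 regions (2.61%, against 1.2% of all merged regions and 1.91% of stable ones), lin-35 at 8 (1.39%, against 0.917% and 1.03%) and lin-37 at 6 (1.04%, against 0.431% and 0.423%). None was lost in lin-15B, lin-35 or lin-37 (backgrounds 0.0%, 0.018% and 0.0419%). Without the H3K4me3 library of lin-15B at 20 °C, replicate 1, 23 were gained in lin-15B. The gains of lin-15B lay on both arms, 8 left and 7 right (11 and 12 without that library), while lin-35 had 1 left and 7 right and lin-37 1 left and 5 right. Without lin-35 at 20 °C, replicate 2, the gains of lin-35 were 4 left and 8 right, and without wild type at 26 °C, replicate 1, those of lin-37 were 2 left and 6 right. Of the stable regions on the other autosomes, lin-15B gained the mark at 2.19% on left arms and 1.61% on right arms, lin-35 at 0.673% on left and 1.14% on right arms, and lin-37 at 0.505% on left and 0.189% on right arms. How the gains split over the arms was not tested. In all, 19 regions (3.30%, against 1.61% of all merged and 2.39% of stable regions) gained the mark in at least 1 mutant, 9 of them in lin-15B only (1.57%, against 0.617% and 1.21%).

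Gained in all 3 mutants were 3 right-arm regions (0.522%, against 0.312% of all merged regions, the share of stable regions not being given). They were III:11602283-11605139, III:11922731-11923367 and III:13140383-13142465. At the first, lin-15B had folds of 16.7 and 11.2 at 26 °C and of 9.48 and 16.1 at 20 °C. lin-35 had 16.7 and 19.6 at 26 °C and 12.4 and 14.03 at 20 °C there, lin-37 had 22.5 and 14.3 at 26 °C and 5.45 and 4.65 at 20 °C, and no peak was called in wild type. H3K9me2 at this region was also shorter in lin-15B than in wild type. At the third the folds averaged 8.26 in lin-15B and 13.5 in lin-35, with 13.1 in lin-37.

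The strongest gain by mean fold in lin-15B was at III:1412296-1414503, with folds of 67.0 and 30.7 at 26 °C and 34.3 and 27.97 at 20 °C. lin-37 also gained it there, with 44.9 and 17.6 at 26 °C and 7.24 and 6.41 at 20 °C, and lin-35 had peaks of 4.36 and 5.19 at 26 °C only. At III:195259-198065, near the left end, lin-15B gained a peak with folds of 43.2 and 26.4 at 26 °C and 23.7 and 26.3 at 20 °C. H3K9me2 there covered 1382 and 1337 bp at 26 °C and 856 and 904 bp at 20 °C in lin-15B, against 2716 and 2724 bp at 26 °C and 2785 and 2728 bp at 20 °C in wild type. At this region a peak of H3K4me3 and a shorter H3K9me2 cover were found in the same mutant. lin-35 and lin-37 had H3K4me3 at this region at 26 °C only (folds of 9.25 and 18.3, and 32.7 and 9.76), while their H3K9me2 covered 2642 to 2762 bp. In lin-15B 6 of the 15 regions that gained H3K4me3 were also shorter in H3K9me2, in lin-35 2 of 8 and in lin-37 0 of 6. Over all stable regions that gained it, the same share was 31.7% (20 of 63) in lin-15B, 11.8% (4 of 34) in lin-35 and 0.0% (0 of 14) in lin-37. The counts are small and were not tested.

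Where a mutant had the mark at such a region without a full gain, it was more often at 26 °C than at 20 °C. The 19 regions leave 28 pairs of a region and a mutant without a full gain. In 10 pairs no library had a peak, in 13 there were peaks at 26 °C and none at 20 °C, in 5 there were peaks at both, and in 0 at 20 °C only. III:11621603-11624880 shows the pattern: lin-15B had folds of 18.7 and 18.1 at 26 °C and 13.6 and 17.5 at 20 °C, lin-35 had 2.98 and 3.34 at 26 °C and none at 20 °C, and lin-37 had 16.5 and 10.2 at 26 °C and none at 20 °C. At III:3499466-3501072 and III:11106215-11107761, gained in lin-15B and lin-35, lin-37 likewise had peaks at 26 °C only. These pairs were counted after the values were seen, and libraries at 26 °C had more marked regions in general.

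Where H3K4me3 was called in all 16 libraries, the fold of the highest-scoring overlapping peak could be compared. In a wide region this may be a different peak in different libraries. Of the 93 such regions, 4 had a higher fold in all lin-15B than in all wild-type libraries (4.30%, against 5.28% of all merged regions marked in 16 libraries), 6 in lin-35 (6.45%, against 5.28%) and 3 in lin-37 (3.23%, against 2.23%). None had a lower fold in lin-15B, lin-35 or lin-37 (backgrounds 0.0%, 0.413% and 0.248%). These shares are near the background, and the regions named here for their fold were chosen after their values were seen. The median fold over the 93 regions ran from 12.5 to 20.8 in lin-15B libraries, 15.3 to 26.3 in lin-35, 10.5 to 31.2 in lin-37 and 12.2 to 21.6 in wild type, so the scale of the fold itself overlapped between genotypes.

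At III:13524961-13531515, near the right end, the folds at 26 °C were 43.1 and 26.3 in lin-15B, 27.5 and 26.3 in lin-35, 32.0 and 23.5 in lin-37 and 4.72 and 6.23 in wild type. At 20 °C they were 21.8 and 25.1 in lin-15B, 19.6 and 12.2 in lin-35, 20.0 and 11.01 in lin-37 and 7.32 and 5.14 in wild type. Of the 93 regions it was the only one above wild type without overlap in all 3 mutants. At III:11062860-11067194, where H3K9me2 was shorter in lin-35 and lin-37, the folds ran from 29.6 to 42.96 in lin-35 and from 23.3 to 50.4 in lin-37, against 7.23 to 12.6 in lin-15B and 7.89 to 11.7 in wild type. In both marks lin-35 and lin-37 stood apart from wild type there, while lin-15B overlapped it. At III:1935717-1960214, a 24498-bp left-arm region, mean folds were 29.8 for lin-15B, 32.8 for lin-35 and 26.1 for lin-37, against 13.4 in wild type, and lin-37 overlapped wild type.

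**Figure D5:**
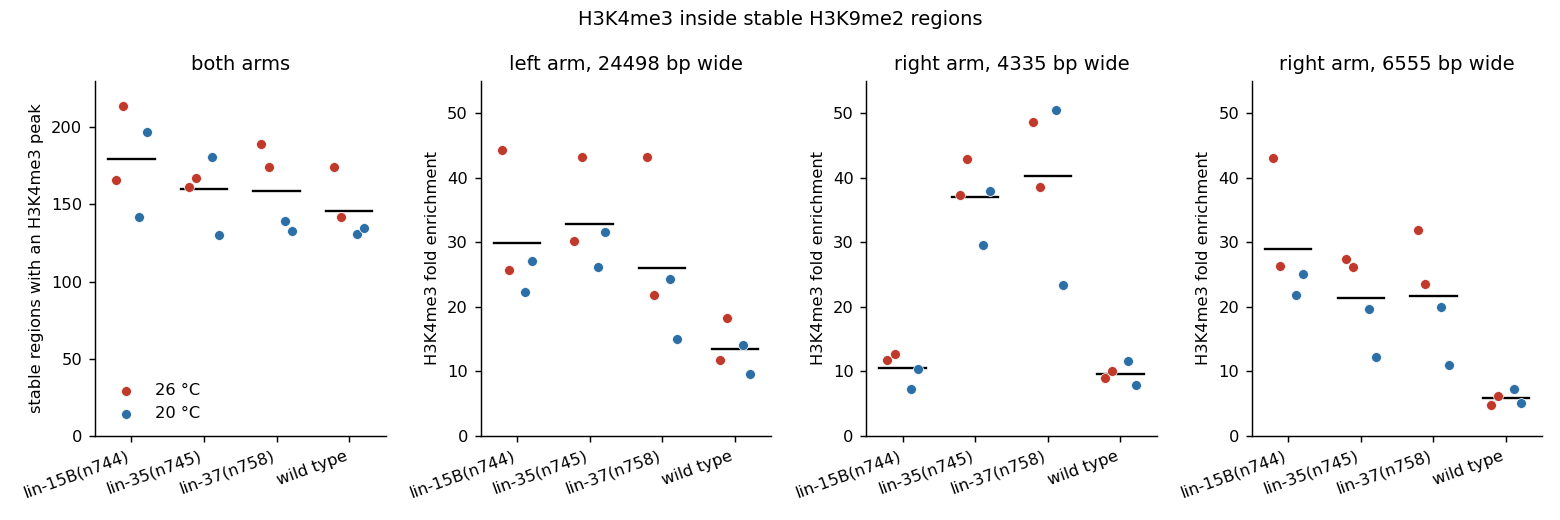
H3K4me3 by genotype, 1 point per library (26 °C red, 20 °C blue), with means as lines (n = 4). The first panel counts stable regions with a peak (130 to 214 of 575, genotypes overlapping). The others give the authors' fold enrichment of each library's highest-scoring overlapping peak. They show III:1935717-1960214, III:11062860-11067194 and III:13524961-13531515, where at least 2 mutants lie above wild type.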

How the data were processed

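Members and region lists were chosen with earlier results of these data known. Per the submitters' processing notes, reads were aligned with Bowtie 1.1.2 to ce10 and peaks were called with MACS2, with no version in the sources used here. Every library has a deposited list of its own. Peak names in the deposited lists give q cutoffs of 0.01 or 0.05, an extension of 250 bp for H3K4me3 and a shift of 125 bp for H3K9me2. For H3K4me3 the deposited lists hold the authors' fold enrichment (a ratio) at the summit and its −log10 p and −log10 q. A region's fold in a library is that of the highest-scoring H3K4me3 peak overlapping it by at least 1 bp. The summit of that peak need not lie inside the region. Of the broad H3K9me2 lists, the deposited score columns were used only to rank peaks within a list, since which quantity each holds was not settled. Depth is unknown. Of 78 samples in all, the H3K27me3 (8), H3K36me3 (18) and input (20) ones were not used here.

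Arms are the outer 30% at each end of III, taking the highest H3K9me2 peak end, 13783604, as the chromosome's length. Covered length is the number of bases of a region under peaks of a list. Nothing in the labels says that replicates are separate cultures, so p-values refer to the spread among these libraries, possibly a technical one. Tests were exact permutation tests, two-sided: 70 splits of 4 against 4, 1296 arrangements of temperature within genotype, or 65536 sign flips over 16 libraries, adjusted over 13 tests by the Benjamini-Hochberg method. Counts of regions whose groups do not overlap stand beside the same share over all regions. Named regions are, per arm, the longest and shortest covered, those with most H3K4me3, those that gained it, and those with the largest length differences per mutant. Others are said in the text to be chosen after their values were seen. No genome or annotation of ce10 was used, so no sequence or gene is given. Alternatives are listed in the closing section. Python 3.11.15, numpy 2.4.6, pandas 2.3.3 and matplotlib 3.10.9 were used, and the scripts were tested on simulated data.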

Additional observations from a re-analysis of the deposited data

Results flagged for a closer look

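In groups of 4 to 8 libraries, 48 groups of values were searched for a library far from the rest, and chance flags about 1 in 20 groups. The covered length of the stable regions in wild type at 26 °C, replicate 2, was 1490.22 kb, apart from the other 7 libraries at 26 °C, which lay above it. The left-arm share of covered length in lin-15B at 20 °C, replicate 1, was 76.41%, apart from the other 7 libraries at 20 °C, which lay below it. The first of these libraries moves the counts of shorter regions, and the second has the looser q cutoff of 0.05. What part the cutoff has in its values was not tested.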

How the results depend on the processing

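The number of stable regions was 507 with a 200 bp overlap, 549 with peaks up to 500 bp apart merged, 504 with equal peak numbers, 541 and 590 with arms as the outer 25% and 35%, and 667 with at least 15 of 16 lists. Without 1 library at a time it ran from 575 to 621 (left arm 293 to 304, right arm 282 to 317).

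On the scale of autosomal covered length the temperature difference was 1.13 points, and 79 regions were shorter and 9 longer in lin-15B. Within 26 °C, covered length differed from wild type by 86.9 kb in lin-15B, 104.5 kb in lin-35 and 16.9 kb in lin-37, where 2 libraries against 2 allow no p below 0.333. Shorter regions there numbered 87, 84 and 90 and longer ones 150, 173 and 122 in that order, with H3K4me3 gained at 29, 18 and 23 and lost at 1, 6 and 1. Within 20 °C, the left-arm share of lin-37 differed by 0.20 points, shorter regions numbered 236, 225 and 245 and longer ones 64, 45 and 53, with H3K4me3 lost at 1, 4 and 7 and gained in lin-37 at 10. Groups of 2 overlap less often by construction. Full separation of 2 libraries from 2, in either direction, has p = 0.333 in the exact permutation test. Many of these regions are thus expected by chance, and the shares over all regions are not given.

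The excess of H3K4me3 over the pooled other autosome arms was 5.27 points within 26 °C, 4.05 points within 20 °C, 4.91 points in the 8 libraries that share a code in their deposited names and 4.42 points in the other 8. The exact sign-flip permutation test over 8 libraries gave its smallest p, 0.00781, in each (adjusted p = 0.102), and over all alternatives the direction was the same. In the 8 sharing a code, gains numbered 37 in lin-15B and 15 in lin-35 and losses 1 in lin-35 and 5 in lin-37. In the other 8, losses numbered 5, 3 and 1 in the 3 mutants and gains 10 in lin-37. These counts, too, rest on few libraries per genotype, and the shares over all regions are not given.

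With the summit inside the region, left minus right was 1.65 points. With a fold of at least 5 it was -3.37 points, the temperature difference 24.6 regions, and gains in lin-37 3. With equal H3K4me3 peak numbers these were -1.17 points and 17.4 regions, and 1 region lost the mark in lin-37. The cause of these changes was not tested. Among the 5 H3K9me2 libraries that share a code, chosen after seeing the data, the temperature difference was 42 kb and the left-arm share of lin-35 differed by -0.31 points.

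Without 1 library at a time, covered length differed by -169.7 to 20.8 kb in lin-15B, -147.4 to 43.2 kb in lin-35, -213.8 to -23.3 kb in lin-37 and -147.3 to -74.1 kb between temperatures. The left-arm share differed by 1.82 to 4.60, -0.10 to 1.29 and -1.0 to 0.39 points in the 3 mutants, and marked regions by 22.8 to 46.8, 7.17 to 24.2 and 3.17 to 22.8. Shorter regions numbered 44 to 124, 20 to 66 and 28 to 102, longer ones 22 to 42, 7 to 32 and 7 to 24, gains 15 to 23, 8 to 12 and 6 to 8, and losses 0 to 1 in each mutant. With fewer libraries to set apart, these counts of regions can only stay or rise.

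Same-numbered replicates did not deviate together (correlations of -0.245 to 0.130 for H3K9me2 and -0.161 to 0.109 for H3K4me3), so the numbers do not pair the libraries. With a replicate block, covered length gave p = 0.500, 0.625 and 0.750 for the mutants and 0.172 for temperature, the left-arm share 0.125, 0.250 and 1, and marked regions 0.250, 0.500, 0.250 and 0.0312 in the exact permutation test, and none passed after adjustment. The smallest p that 4 pairs allow is 0.125. Replicate numbers do not follow the code that 8 of the H3K4me3 libraries share, so this block does not match libraries by code. Of 488 values under alternatives, 412 kept their direction and side of the threshold, or for counts stayed within 1.5 times. The lists limit what can be read: they hold no depth, and 1 wild-type library sets most counts of shorter regions.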
